A study of Mus musculus with 2 samples.

Results

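The genes of cholesterol synthesis and sterol control were examined in 1 normal and 1 diabetic mouse liver library. The set is a fixed list of gene names and holds 30 genes for mevalonate and sterol synthesis, control of the transcription factor SREBP2, cholesterol esterification, intracellular sterol transport and sterol export. Of these 30 genes, 21 had a row in the deposited table of 8551 genes. The other 9 (*Hmgcs1*, *Mvk*, *Pmvk*, *Fdps*, *Fdft1*, *Soat1*, *Soat2*, *Stard4* and *Npc2*) had no row and were not analysed here.

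Both libraries were made from liver of 9-week-old male mice, with C57BL/6 given as background in the labels of each, killed about 3 h into the light cycle. The normal mice were wild type. The diabetic mice were db/db, a type 2 diabetic model homozygous for a loss-of-function leptin receptor allele, carried in every cell, that becomes obese through overeating. Mice came from more than 1 supplier and ate chow freely; the methods do not tie a supplier to a genotype, and they do not state how many livers, pooled or not, went into each library. With 1 library per genotype, no difference given here has a replicate check, and every interval and false discovery rate (FDR) covers counting error only.

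The assay was digital gene expression tag profiling, in which cDNA is cut with DpnII at GATC and a short tag next to a cut site is sequenced and counted. Values are the authors' TPM, here the tags of a gene per 1000000 clean tags of its library. Levels are compared here only within a gene, apart from sums over the genes of a list, in which abundant genes weigh most. Steps in the values correspond to 10278530 clean tags for normal and 13508232 for diabetic liver, so that 1 read was worth 0.0973 TPM and 0.0740 TPM. The listed genes held 37.1% of clean tags in normal liver and 44.4% in diabetic liver, and the median log2 ratio of all listed genes, diabetic over normal, was 0.25 and not 0. Scaling by the listed genes in 4 other ways lowered every log2 ratio by 0.25 to 0.31, and members whose direction or call depended on this are named below.

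Cholesterol is built from acetyl-CoA through mevalonate, isoprenoid units, squalene and lanosterol, and the enzymes after lanosterol remove methyl groups and move or reduce double bonds in the endoplasmic reticulum. When membrane sterol is low, SCAP carries the precursor of SREBP2 to the Golgi, where it is cut to release an active transcription factor for most of these enzymes; when sterol is high, the INSIG proteins hold SCAP back. Liver is a main site of this synthesis, and it also disposes of cholesterol, loading it onto high density lipoprotein through ABCA1 and secreting it into bile through the ABCG5 and ABCG8 heterodimer.

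The tag that the standard protocol would read from a gene is predicted here as the last GATC of its longest coding transcript (GENCODE release for GRCm38.p6) and the 16 bases after it. The labels name random hexamer priming, and whether reads came from this last site alone is not known, so a value may hold tags of other sites of the gene. These 7 tags are printed for genes on which the main differences below turn; the capitals mark the DpnII site.
Idi1: GATCagggcttattttagag
Ebp: GATCgagggctggttctctc
Sc5d: GATCcttaaccagtgcatag
Scap: GATCagaccatggtactggc
Abca1: GATCtatttttgcactggaa
Abcg5: GATCcaacacctctatgcta
Abcg8: GATCcgtggactcagcatcc
The tags of Idi1 (chr13:8892027-8892046, plus strand), Sc5d (chr9:42251964-42251983, minus strand), Abca1 (chr4:53030971-53030990, minus strand) and Abcg8 (chr17:84699879-84699898, plus strand) lie in the 3′ UTR in the last exon. The tags of Ebp (chrX:8190127-8190146, minus strand) and Abcg5 (chr17:84658659-84658678, minus strand) lie in coding sequence, and that of Scap (chr9:110384141-110384280, plus strand) is coding and crosses an exon junction. Of the 19 listed members with a tag placed on the genome, 15 had it in the 3′ UTR and 4 in coding sequence. None of the 21 listed members had a predicted tag that also occurs next to a GATC in a transcript of another gene, against 362 of 8007 listed coding genes (4.52%). Among the 9 members without a row, the tags of *Fdps* and *Soat2* occur in transcripts of 1 and 208 other genes. These 2 are 22.2% of the 9, beside 2426 of 13281 coding genes without a row (18.3%).

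By the criteria of the study (at least 1.5-fold on the deposited values and an FDR under 0.001), 7 of the 21 members rose in the diabetic library: *Acat2*, *Idi1*, *Hsd17b7*, *Ebp*, *Sc5d*, *Abcg5* and *Abcg8*. The synthesis enzymes made up 5 of them and the bile exporter the other two, and *Scap* was the 1 member that fell. The FDR is from a two-sided exact binomial test of a gene's reads in the 2 libraries, adjusted over 8551 genes by the Benjamini-Hochberg method, and it compares these libraries and not the genotypes. In whole liver, fewer cells of a type and less RNA per cell cannot be told apart.

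The 7 members that rose are 33.3% of the 21, where 22.9% of all listed genes rose by both criteria. The 1 member that fell is 4.76%, where 8.19% of all listed genes fell. By fold alone, 8 members (38.1%) were at least 1.5-fold higher and 2 (9.52%) at least 1.5-fold lower, beside 34.4% and 15.3% of all listed genes. The shares by fold stood close to those of the whole table, and no test of the set was made. After TMM scaling the split became 5 higher (23.8%) and 5 lower (23.8%), beside 24% and 23.6% of all listed genes. The median log2 ratio of the members was 0.42 on the deposited values, with 14 above 0 and 7 below, beside a median of 0.25 for all listed genes.

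**Figure D1:**
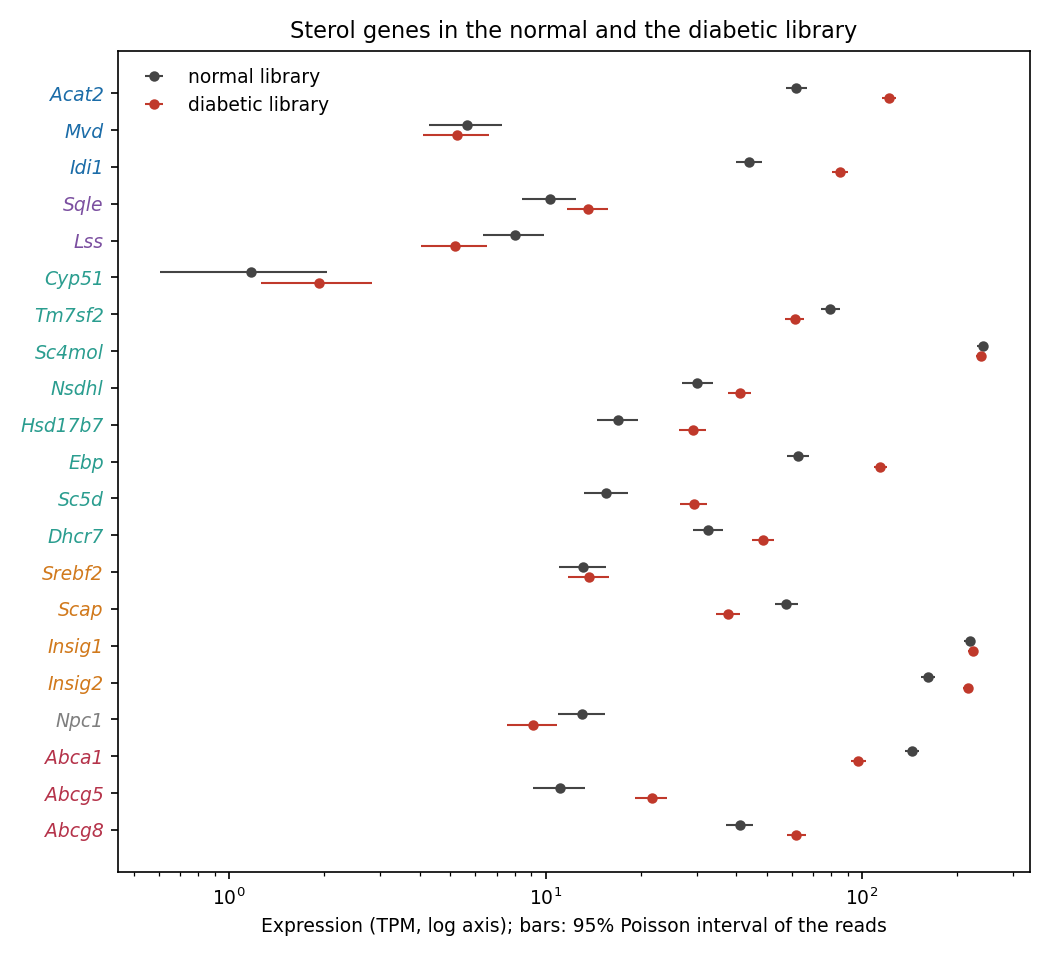
Expression of the 21 listed sterol genes in TPM on a log axis, in pathway order, with 1 point for the normal library (dark) and 1 for the diabetic library (red) and bars for the 95% Poisson interval of the reads. The intervals of *Acat2*, *Idi1*, *Ebp*, *Sc5d*, *Abcg5* and *Scap* lie apart, whereas those of *Mvd*, *Cyp51* and *Srebf2*, which had few reads or nearly equal levels, overlap.

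Of the 7 genes from acetyl-CoA to farnesyl diphosphate in the set, 3 were listed, and their summed level went from 111.8 TPM in normal liver to 212.1 TPM in diabetic liver. *Acat2* (Entrez 110460), which makes acetoacetyl-CoA in the cytosol, was at 62.1 TPM (638 reads) in normal liver and 122 TPM (1643 reads) in diabetic liver. It rose 1.96-fold (95% Clopper-Pearson interval 1.79 to 2.15, FDR 9.0e-50). *Idi1* (Entrez 319554), the isomerase that supplies dimethylallyl diphosphate, was at 44.1 TPM (453 reads) and 85.2 TPM (1151 reads) and rose 1.93-fold (1.73 to 2.16, FDR 5.1e-34). Both genes were nearly doubled, and both stayed over 1.5-fold higher under all 4 other scalings, at 1.59-fold and 1.56-fold under the strongest of them.

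*Mvd* (Entrez 192156), the decarboxylase that makes the substrate of IDI1, was at 5.64 TPM (58 reads) in normal liver and 5.26 TPM (71 reads) in diabetic liver. Its log2 ratio of -0.10 had a 95% interval from -0.62 to 0.42, so a difference was not detectable at this depth. A ratio of the 2 ratios needs no scaling between libraries; pairs for it were chosen after the values were seen. That of *Idi1* over *Mvd* was 2.07 (95% exact interval 1.42 to 3.03). The interval is not adjusted for that choice, so the unequal ratios of these neighbouring steps are given as a description only.

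*Acat2* has a close paralog beside it in the genome, *Acat3*, and the sources used here do not state how tags common to paralogs were counted. *Acat3* also rose, from 80.1 TPM (823 reads) to 137 TPM (1851 reads), or 1.71-fold. The ratio of *Acat2* over that of *Acat3* was 1.14 (1.01 to 1.30), a small difference beside the rise of either gene. In the GENCODE transcripts the last tags of the 2 genes share 5 of the 16 bases after GATC, but the *Acat2* tag lies beyond the end of the RefSeq gene, so which *Acat2* site was read is not known and its tag is not printed.

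Between farnesyl diphosphate and lanosterol, 2 of 3 genes were listed, and neither passed both criteria. *Sqle* (Entrez 20775), squalene epoxidase, a rate-limiting step, was at 10.3 TPM (106 reads) in normal liver and 13.6 TPM (184 reads) in diabetic liver, a ratio of 1.32 (1.03 to 1.69, FDR 0.044). *Lss* (Entrez 16987), lanosterol synthase, which closes the rings of the product of SQLE, was at 7.98 TPM (82 reads) and 5.18 TPM (70 reads), 1.54-fold lower with an FDR of 0.018. The log2 interval of *Lss* ran from -1.10 to -0.14, below 0 throughout. The ratio of *Sqle* over that of *Lss* was 2.03 (1.34 to 3.09), and neither gene was called alone. The pair was chosen after its values were seen, and the interval is not adjusted for that choice. The interval therefore cannot decide whether these consecutive enzymes differed.

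All 8 genes from lanosterol to cholesterol in the set were listed, and their summed level was 480 TPM in normal liver and 563 TPM in diabetic liver. *Ebp*, *Sc5d* and *Hsd17b7* rose by both criteria and none fell. *Ebp* (Entrez 13595), the sterol isomerase that moves the ring double bond, was at 62.9 TPM (646 reads) and 114 TPM (1545 reads) and rose 1.82-fold (1.66 to 2.00, FDR 1.0e-38). *Sc5d* (Entrez 235293), the desaturase that acts on the product of EBP, was at 15.6 TPM (160 reads) and 29.4 TPM (397 reads) and rose 1.89-fold (1.57 to 2.28, FDR 1.3e-11). *Hsd17b7* (Entrez 15490), the 3-keto reductase of the demethylation complex, was at 16.9 TPM (174 reads) and 29.2 TPM (394 reads) and rose 1.72-fold (1.44 to 2.07, FDR 4.3e-09). Of these, *Sc5d* stayed over 1.5-fold under all 4 other scalings, *Ebp* was at 1.53-fold with TMM scaling and 1.47-fold with median-ratio scaling, and *Hsd17b7* was under 1.5-fold in all 4, at 1.45-fold with TMM scaling.

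*Dhcr7* (Entrez 13360), the reductase that finishes cholesterol from 7-dehydrocholesterol, was at 32.6 TPM (335 reads) and 48.7 TPM (658 reads), a ratio of 1.49 that lies just under the 1.5-fold threshold, with an FDR of 6.1e-09. *Nsdhl* (Entrez 18194), the C4 decarboxylase, was at 30.2 TPM (310 reads) and 41.0 TPM (554 reads), a ratio of 1.36 (1.18 to 1.57). *Cyp51* (Entrez 13121), the lanosterol demethylase, had only 12 reads (1.17 TPM) in normal liver and 26 reads (1.92 TPM) in diabetic liver. Its log2 interval, from -0.32 to 1.84, was the widest among the members and allows a lower as well as a higher level.

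The remaining post-lanosterol genes had more reads and sat at or below equality. *Sc4mol* (now *Msmo1*, Entrez 66234), the C4 methyl oxidase, was at 241 TPM (2477 reads) in normal liver and 238 TPM (3209 reads) in diabetic liver, a log2 ratio of -0.02 (-0.10 to 0.06). *Tm7sf2* (Entrez 73166), a sterol C14 reductase, was at 79.4 TPM (816 reads) and 61.3 TPM (828 reads), 1.30-fold lower with an FDR of 6.7e-07. Under the 4 other scalings *Tm7sf2* was over 1.5-fold lower. The ratio of *Ebp* over that of *Tm7sf2* was 2.36 (2.06 to 2.70), and that of *Sc5d* over *Sc4mol* was 1.92 (1.58 to 2.33). The enzymes of these pairs, which were chosen after the values were seen, had unequal ratios whatever the scaling between libraries.

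Across the 13 listed synthesis enzymes, 9 had log2 ratios above 0 and 4 below; 5 rose by both criteria (38.5%, beside 22.9% of all listed genes) and 0 fell (beside 8.19%), and the median log2 ratio was 0.58. By fold alone, 6 of the 13 (46.2%) were at least 1.5-fold higher and 1 (7.69%) lower, beside 34.4% and 15.3% of all listed genes. The summed level of the 13 enzymes was 610 TPM in normal liver and 794 TPM in diabetic liver, a ratio of 1.30. *Sc4mol* alone held 241 TPM and 238 TPM of these sums. The shift of all genes by 0.25 on the log2 scale is included in these values, and with TMM scaling the median of the enzymes was 0.33. With that scaling *Acat2*, *Idi1*, *Ebp* and *Sc5d* stayed at least 1.5-fold higher, and *Lss* and *Tm7sf2* were at least 1.5-fold lower. The 5 synthesis enzymes of the set without a row include *Hmgcs1*, *Fdps* and *Fdft1*, so the route was seen in part.

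**Figure D2:**
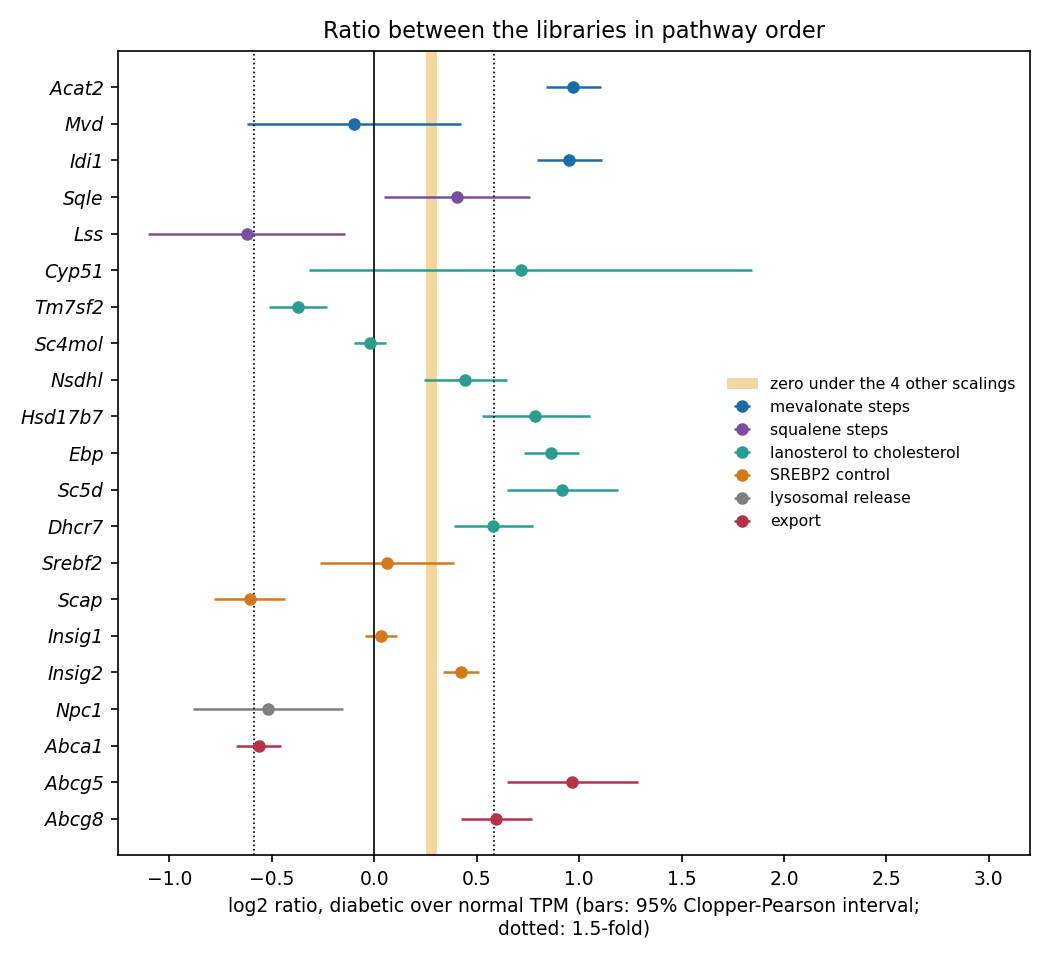
Log2 ratio of diabetic over normal TPM for each listed member in pathway order, coloured by step, with bars for the 95% Clopper-Pearson interval. The shaded band, at 0.25 to 0.31, is where 0 would lie under the 4 other scalings; *Acat2*, *Idi1*, *Ebp*, *Sc5d* and *Abcg5* lie well to its right, *Lss*, *Tm7sf2*, *Scap*, *Npc1* and *Abca1* to the left of 0, and *Srebf2* and *Insig1* between 0 and the band.

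The promoters of the synthesis enzymes were searched because this route is known for shared control by SREBP2, which works together with the factors NF-Y and Sp1. Windows from 250 bases before to 50 bases after the start were taken from RefSeq (GRCm38.p6), and 19 of the 21 listed members had one, all but *Sqle* and *Npc1*. The motifs were CCAAT (core of NF-Y sites), GGGCGG (core of Sp1 sites) and CACNCCAC (as in the sterol regulatory element), each on both strands. CCAAT and GGGCGG were both present in 11 of 12 synthesis enzymes with a window, all but *Acat2*, which lacked CCAAT. Of all 32851 windows, 37.4% held CCAAT, 35.7% GGGCGG, 12.8% both and 6.24% CACNCCAC. Counted by gene, both were present in the same window in 26.6% of the 6623 listed genes with a window and in 2 of the 7 other members. *Insig2* held each of the motifs, but in different windows. CACNCCAC was found in *Acat2* and *Insig1* alone among the 19 members with a window, and by gene in 7.75% of the 6623 listed genes. A match is a description of letters, not a binding site.

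The 250 bases before the start are printed for *Ebp* and *Sc5d*, which rose, and for *Mvd*, which was not called, to show that all 3 hold the motifs; capitals mark matches to CCAAT (or ATTGG on the other strand) and GGGCGG (or CCGCCC).
Ebp, chrX:8193513-8193762, minus strand: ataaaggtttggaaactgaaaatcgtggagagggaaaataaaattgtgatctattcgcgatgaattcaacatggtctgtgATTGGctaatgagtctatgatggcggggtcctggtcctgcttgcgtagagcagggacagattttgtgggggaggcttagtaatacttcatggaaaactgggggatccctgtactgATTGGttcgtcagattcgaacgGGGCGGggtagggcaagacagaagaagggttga
Sc5d, chr9:42264301-42264550, minus strand: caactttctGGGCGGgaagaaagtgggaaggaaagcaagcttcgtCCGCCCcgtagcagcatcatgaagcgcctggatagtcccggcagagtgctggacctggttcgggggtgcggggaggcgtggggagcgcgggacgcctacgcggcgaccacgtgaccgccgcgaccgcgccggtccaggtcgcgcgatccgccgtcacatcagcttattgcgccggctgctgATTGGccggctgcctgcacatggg
Mvd, chr8:122443423-122443672, minus strand: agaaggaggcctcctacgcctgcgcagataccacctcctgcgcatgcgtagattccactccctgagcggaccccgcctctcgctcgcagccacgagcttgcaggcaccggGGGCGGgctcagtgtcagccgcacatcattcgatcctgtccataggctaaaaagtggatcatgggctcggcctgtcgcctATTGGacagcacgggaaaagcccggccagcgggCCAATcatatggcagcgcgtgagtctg
*Lss*, *Tm7sf2* and *Sc4mol*, whose log2 ratios were below 0, also held both motifs.

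All 4 genes of SREBP2 control were listed, and *Scap* was the one that passed both criteria. *Scap* (Entrez 235623), the sterol sensor that escorts SREBP2, was at 57.7 TPM (593 reads) in normal liver and 37.8 TPM (511 reads) in diabetic liver. It fell 1.52-fold, with a log2 ratio of -0.61 (-0.78 to -0.44) and an FDR of 1.7e-11. The fall lies just past the threshold on the deposited values, and *Scap* had fewer reads in the deeper library. With TMM scaling the *Scap* level in the diabetic library was 0.551 times that in the normal library.

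*Srebf2* (Entrez 20788), which encodes SREBP2 itself, was at 13.1 TPM (135 reads) and 13.7 TPM (185 reads), a log2 ratio of 0.06 (-0.27 to 0.39). *Insig1* (Entrez 231070), an SREBP target that retains SCAP, was at 219 TPM (2249 reads) and 224 TPM (3024 reads), a log2 ratio of 0.03 (-0.05 to 0.11). Both ratios lay near equality, and both turned to below 0 under all 4 other scalings. *Insig2* (Entrez 72999), the INSIG gene not induced through SREBP, was at 162 TPM (1661 reads) and 217 TPM (2930 reads). Its ratio of 1.34 (1.26 to 1.43, FDR 3.3e-21) was under the threshold. The ratio of *Insig2* over that of *Insig1* was 1.31 (1.21 to 1.42), and that of *Srebf2* over *Scap* was 1.59 (1.23 to 2.06).

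The exporters had ratios on both sides of equality. *Abcg5* (Entrez 27409) was at 11.1 TPM (114 reads) in normal liver and 21.6 TPM (292 reads) in diabetic liver and rose 1.95-fold (1.56 to 2.44, FDR 1.9e-09). *Abcg8* (Entrez 67470), its obligate partner, was at 41.1 TPM (422 reads) and 62.0 TPM (838 reads) and rose 1.51-fold (1.34 to 1.70, FDR 1.1e-11), just past the threshold. *Abcg5* stayed over 1.5-fold under all 4 other scalings, whereas *Abcg8* was at 1.27-fold with TMM scaling. The ratio of *Abcg5* over that of *Abcg8* was 1.29 (1.00 to 1.67).

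*Abca1* (Entrez 11303), which loads cholesterol onto apolipoprotein A-I, was at 144 TPM (1479 reads) in normal liver and 97.3 TPM (1314 reads) in diabetic liver. It was 1.48-fold lower, just short of the threshold, with a log2 ratio of -0.56 (-0.67 to -0.46) and an FDR of 5.4e-24, and over 1.5-fold lower under all 4 other scalings. All 3 exporters are known targets of the oxysterol receptors LXR. The ratio of *Abcg5* over that of *Abca1* was 2.88 (2.28 to 3.66) and that of *Abcg8* over *Abca1* was 2.23 (1.94 to 2.57). The bile exporter and *Abca1* thus parted whatever the scaling. These pairs too were chosen after the values were seen, and their intervals are not adjusted for that.

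*Abcg5* and *Abcg8* lie head to head. Printed are the 109 bases between the *Abcg5* start and the *Abcg8* start in RefSeq that lies furthest along the plus strand. They were chosen because these neighbours both rose, and no motif of those searched lies within them.
Abcg5 and Abcg8, chr17:84683012-84683120, plus strand: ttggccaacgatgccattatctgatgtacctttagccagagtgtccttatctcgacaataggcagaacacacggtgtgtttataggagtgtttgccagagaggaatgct
This interval is noncoding and starts next to the first base of *Abcg5*, which runs on the minus strand. The promoter windows of *Abcg5* and *Abcg8* reach past it, and both genes had CCAAT in a window.

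*Npc1* (Entrez 18145), which releases cholesterol from lysosomes and was the 1 listed transport gene of 3, was at 13.0 TPM (134 reads) in normal liver and 9.11 TPM (123 reads) in diabetic liver. It was 1.43-fold lower, with a log2 ratio of -0.52 (-0.88 to -0.15) and an FDR of 0.0099, so it did not pass. Both esterification genes, *Soat1* and *Soat2*, were without a row.

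**Figure D3:**
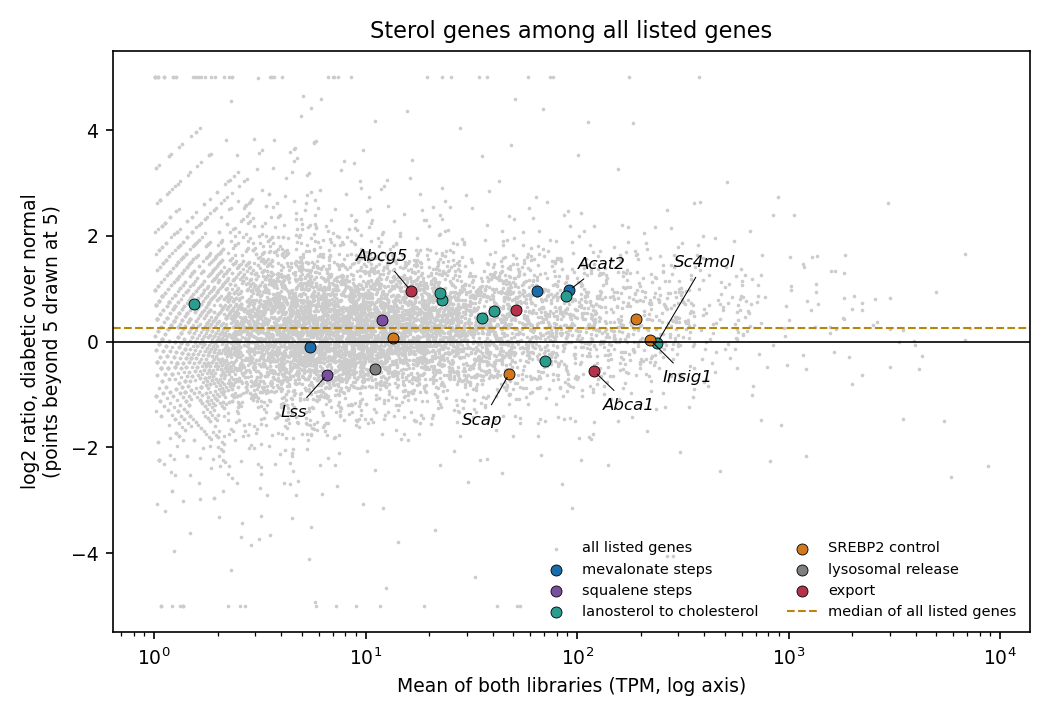
Log2 ratio of diabetic over normal TPM against the mean of both libraries (TPM, log axis) for all 8551 listed genes (grey) and the 21 members (coloured by step). The members lie within the cloud of all listed genes, between -0.62 for *Lss* and 0.97 for *Acat2*, and the dashed line marks the median of all listed genes at 0.25.

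*Abca1* and *Npc1* are also expressed in macrophages, and some Kupffer cell markers were also lower. The summed level of 8 listed markers of 10 was 327 TPM in normal liver and 194 TPM in diabetic liver. *C1qa* alone went from 176 TPM to 50.7 TPM, and without it the other 7 summed to 150 TPM and 143 TPM, with *Cd5l* at 64.7 TPM and 62.9 TPM. Of the 8, 7 were below 0 and 4 (*C1qa*, *C1qc*, *Csf1r* and *Emr1*) fell by both criteria, while *C1qb* rose; the defining marker *Clec4f* had 15 reads in each library, and none was at 0. Their part in the values of *Abca1* and *Npc1* was not tested. Of 6 hepatocyte markers 5 were listed, and albumin (*Alb*), at 6801 TPM and 6912 TPM, made up most of their level in both libraries; *Cps1* rose from 130 TPM to 317 TPM and *Hnf4a* fell from 96.8 TPM to 46.2 TPM. Of the 6 listed endothelial markers, 1 rose and 1 fell. Among 4 listed stellate cell markers, *Dcn* was at 56.9 TPM and 84.4 TPM, *Col1a1* rose and *Reln* fell, and among 3 listed cholangiocyte markers *Spp1* rose from 57.2 TPM to 103 TPM while *Krt7* and *Epcam* were near equality, at log2 ratios of 0.14 and -0.08.

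A wider list of 66 sterol genes outside the set was counted whole, of which 52 were listed. Of these, 16 rose and 1 fell by both criteria, with a median log2 ratio of 0.35; these are 30.8% and 1.92% of the 52, beside 22.9% and 8.19% of all listed genes, which is also the background for the lists that follow. By fold alone, 18 (34.6%) were at least 1.5-fold higher and 2 (3.85%) lower, beside 34.4% and 15.3% of all listed genes. With TMM scaling the median was 0.10, and 11 of the 16 kept a fold of at least 1.5. *0610007P14Rik*, *Acat3*, *Stard5* and *Nr1h2* were among those that did not. By fold alone with that scaling, 8 of the 52 were at least 1.5-fold lower, beside 23.6% of all listed genes. Among 5 listed enzymes of the same route, 3 rose. *0610007P14Rik*, known as *Erg28*, a scaffold of the demethylation complex, rose by just over 1.5-fold and *Acat3* 1.71-fold.

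*Por*, the reductase that gives electrons to CYP51 and squalene epoxidase, rose from 19.9 TPM (204 reads) to 124 TPM (1675 reads), or 6.25-fold. It also serves the drug-metabolising cytochromes P450 of the liver. Of the other listed electron donors, *Cyb5b* was at a log2 ratio of -0.41 and *Cyb5r3* at 0.06. *Cyb5*, which this list did not hold under that symbol, averaged 3941 TPM over both libraries, with a log2 ratio of -0.06. The gene that supplies electrons to these oxidases thus had a larger ratio than *Cyp51* and *Sqle* themselves.

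For isoprenoids that leave the route before squalene, 7 of 11 genes were listed and 3 rose: *Coq2* 1.96-fold, *Pdss2* 2.70-fold and *Pdss1*, all of ubiquinone synthesis. *Pdss1* had 2 reads in normal liver and 38 in diabetic liver, a log2 ratio of 3.89 with a counting interval from 1.90 to 6.95. *Nus1* of dolichol synthesis was 1.71-fold higher and *Fntb*, a farnesyltransferase subunit, 1.62-fold lower, without passing the FDR.

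In the list for SREBP processing and sterol-dependent protein turnover, 1 of 9 listed genes passed. *Erlin2*, an adaptor in degradation at the endoplasmic reticulum, rose from 3.31 TPM (34 reads) to 14.6 TPM (197 reads), or 4.40-fold. *Srebf1*, the paralog that drives fatty acid synthesis, was at 19.9 TPM and 29.0 TPM, a ratio of 1.46, and the ratio of *Srebf1* over that of *Srebf2* was 1.39 (1.04 to 1.86).

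Among uptake genes, 3 of 7 listed genes rose, among them *Lipa*, the lysosomal ester hydrolase, from 49.1 TPM (505 reads) to 96.0 TPM (1297 reads). In transport, *Tmem97* (1.93-fold) and *Stard5* (1.55-fold) rose and *Osbpl2* fell, from 30.6 TPM to 19.3 TPM, out of 10 listed genes, and *Osbpl1a* was 1.76-fold higher without passing the FDR.

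Of 5 listed oxysterol receptor genes and targets, *Nr1h2* (LXR beta) rose from 14.5 TPM to 24.9 TPM, whereas *Nr1h3* (LXR alpha) was at 88.4 TPM and 86.2 TPM, a log2 ratio of -0.04. Neither of the 2 listed ester hydrolysis genes passed. Ketogenesis shares its first intermediates with the mevalonate route but runs in mitochondria, and 2 of its 4 genes rose, among them *Acat1* from 3.02 TPM (31 reads) to 15.0 TPM (202 reads).

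**Figure D4:**
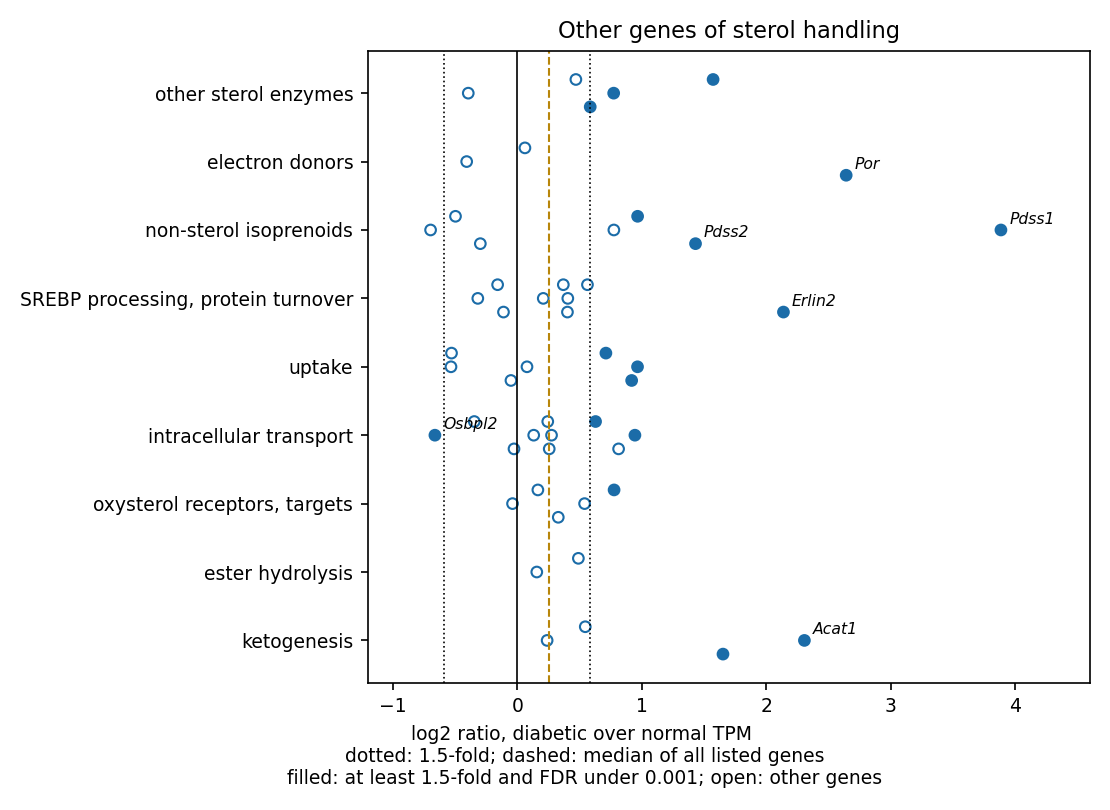
Log2 ratio of diabetic over normal TPM for the 52 listed sterol genes outside the set, 1 row per list, filled where a gene passed both criteria. Filled points lie to the right in 8 of the 9 lists; *Por*, *Erlin2*, *Acat1* and *Pdss1* lie above 2, and *Osbpl2* is the 1 filled point on the left.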

How the data were processed

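Poly(A) RNA from 1 normal and 1 diabetic mouse liver sample was profiled, and groups were taken from the labels. The authors cut cDNA with DpnII, screened high-quality clean tags, compared them with RefSeq and divided the tags of each gene by the clean tags of its library. The deposited values, which the authors call TPM, are thus RPM (tags per 1000000 clean tags); 0.01 stands where no tag was found, and genes with a mean under 1 TPM were left out. The submitters' processing notes name the build mm9; the aligner is not given in the sources used here.

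Values were turned back into whole reads by their step size, within 0.005 TPM, for 8513 of 8513 values above 0.01 in the normal library and 8536 of 8537 in the diabetic library. A count model was not fitted. The test was a two-sided exact binomial test on these reads, with Benjamini-Hochberg adjustment over 8551 genes. Intervals are 95% Clopper-Pearson intervals, and for a ratio of ratios exact conditional ones; since tags were read without molecular identifiers, these cover counting error only. On simulated reads of 8551 genes, 159 of 200 genes changed 3-fold were called, including 89 of 89 that averaged 10 TPM or more, and 0 unchanged genes were called. The simulated reads held counting error alone, without a shift between libraries. Changes under 3-fold, the range of all member calls, were not simulated.

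Alternatives were scaling to the sum of the listed genes, TMM scaling (30% and 5% trimmed), median-ratio scaling (mean of at least 10 TPM), upper-quartile scaling, pseudocounts of 0.1 and 1 TPM, a mean of at least 5 TPM, a fold of 2 and the Audic-Claverie test. Members and lists were chosen with earlier results of these data known. Every listed member was named; of the other sterol genes, those called or a direct counterpart of a member were, except some that are not reported here. Gene pairs set against each other, and genes named outside this rule, were chosen after their values were seen. Sequences came from RefSeq windows and GENCODE transcripts of GRCm38.p6, not mm9. The computation ran in Python 3.11.15 with scipy 1.17.1, numpy 2.4.6 and pandas 2.3.3, and plots in matplotlib 3.10.9.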

Additional observations from a re-analysis of the deposited data

How the results depend on the processing

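The split of the members between higher and lower depended on the scaling. Against 8 members at least 1.5-fold higher and 2 lower on the deposited values, scaling to the sum of the listed genes, TMM scaling and upper-quartile scaling each gave 5 and 5, and median-ratio scaling gave 4 and 5. By both criteria, with 7 higher and 1 lower on the deposited values, median-ratio scaling gave 4 and 5, and the other 3 scalings gave 5 and 5. *Hsd17b7*, *Abcg8* and *Cyp51* were under 1.5-fold in all 4 scalings and *Ebp* in 1, while *Tm7sf2*, *Npc1* and *Abca1* were over 1.5-fold lower in all 4. The median log2 ratio of the members, 0.42, became 0.17 after scaling to the sum, 0.17 with TMM, 0.12 with median-ratio and 0.16 with upper-quartile scaling. That of the synthesis enzymes, 0.58, became 0.32, 0.33, 0.27 and 0.31 in the same order, and 0.43 with a pseudocount of 1 TPM. With that pseudocount 6 members were at least 1.5-fold higher, without *Cyp51* and *Abcg8*, and 1 lower, and at a fold of 2 the counts were 0 higher and 0 lower, by fold alone and by both criteria. The Audic-Claverie test gave 7 and 1, and a mean of at least 5 TPM gave 7 and 2 by fold and 7 and 1 by both criteria. Of 126 single-member values under alternatives, 90 kept direction and side of 1.5-fold, 16 came under it, 12 passed it, and 8, all of *Srebf2* and *Insig1*, turned from above to below 0 with log2 ratios of -0.27 to -0.19. No paired analysis was possible because each genotype has 1 library. Depth limits *Cyp51*, *Mvd*, *Lss* and *Npc1* most, and which library scaling holds was not tested.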
